A study of Campylomormyrus compressirostris and Campylomormyrus rhynchophorus and Campylomormyrus compressirostris x Campylomormyrus rhynchophorus with 15 samples.

Results

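The genes described here are the 200 most abundant gene models whose RNA level in the electric organ was nearly the same in 2 *Campylomormyrus* species and their F1 hybrids. They were taken from 34492 gene models, of which 18489 had a count above 10 in at least 2 libraries, and all 200 members passed that filter. A gene was kept when the largest of the 3 group means of TPM (the transcript level of RSEM, corrected for gene length and scaled to the same total in every library) was at most 25% above the smallest and when the coefficient of variation (CV, the SD as a percentage of the mean) over the 15 fish was below 25%. Genes printed in the gene tables of the study were dropped, and the 200 with the largest mean TPM were taken. The levels of the members chose them, so these and the differences between groups are given as a description, and the calls of a fit across all genes stand only beside their background.

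Electric organ RNA was sequenced in 15 juveniles, 1 library per fish. There were 5 F1 hybrids with a *com* father and a *rhy* mother (comrhy59 to comrhy63), 5 *C. rhynchophorus* (*rhy*, rhy49 to rhy53) and 5 *C. compressirostris* (*com*, com104 to com125). All were bred and raised in captivity, carry no label of a treatment or an age, and are labelled with a length of 6 cm. Neither the clutch nor the sex of a fish is stated, so the spread between fish may include both, and every library was quantified on gene models predicted in *com*, for *rhy* and hybrid reads as well.

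The electric organ of mormyrid fish derives from skeletal muscle. Its cells, the electrocytes, no longer contract but keep excitable membranes rich in sodium and potassium channels, and their synchronous action potentials sum to the electric organ discharge (EOD) used for orientation and communication. The duration of the EOD differs between species, and some ion channel genes differ in level between them. Abundant genes with a steady level are a class set by level alone, and whether it holds ion channel genes is not known here. In most tissues such a class is known to hold parts of the protein synthesis, energy and cytoskeletal machinery, and stable genes serve as references in qPCR. The sources pair no member identifier with a gene name, so the members are given by their gene model identifiers and no function is assigned to any of them.

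Library totals were 12973350 to 19259304 counts in hybrids, 12502114 to 13927972 in *rhy* and 8346577 to 11549622 in *com*. *SCN4AA*, the voltage-gated sodium channel of mormyrid electric organ, had a mean of 1347 ± 162 TPM in hybrids, 471 ± 59.4 TPM in *rhy* and 1433 ± 459 TPM in *com* (SD, n = 5 each). *TYRP1*, a pigment cell gene, averaged 4.09 TPM in hybrids, 38.3 TPM in *rhy* and 0.834 TPM in *com*, and *SIGLEC1*, a macrophage gene, at most 0.698 TPM in any group. *CD34*, a gene of progenitor and endothelial cells, averaged 162 TPM in hybrids, 920.2 TPM in *rhy* and 60.3 TPM in *com*, and its part in any result below was not tested. Among the channels, *KCNA7A_1* (409.9 TPM in hybrids, 53.1 TPM in *rhy*, 1497 TPM in *com*) and the inward rectifier *KCNJ2* (289 TPM in hybrids, 1518 TPM in *rhy*, 131.5 TPM in *com*) differed 28.2-fold and 11.5-fold between the extreme group means, against at most 1.249-fold for the members. The fold limit sets the value for the members, and both channels were taken from the gene tables of the study, so this contrast follows from the choice of genes. In bulk tissue, fewer cells of a type and less RNA per cell cannot be told apart.

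Of all gene models, 3031 met the fold limit, 5362 met the CV limit and 2316 met both. Of these, 9 stood in the gene tables, none of them as abundant as the lowest member, and 2307 were left. The least abundant member had a mean of 121.4 TPM and the one before it 122.7 TPM, while the next 2 genes that met the limits both had 121.4 TPM. The members nearest to the fold limit had ratios of 1.2487 and 1.2474, and the nearest abundant genes outside it had 1.2507 and 1.2518. For the CV, the last 2 inside had 0.233 and 0.233, and the first 2 outside 0.257 and 0.273. The border therefore cut through a continuum in fold and rank.

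Stability of this degree was uncommon among abundant genes. Of the 1184 gene models at or above the level of the lowest member, 551 (46.5%) met the CV limit but only 210 (17.7%) the fold limit. The fold limit alone turned away 351 genes, the CV limit alone 10, and both together 623. The members had a median ratio of 1.16 (range 1.004 to 1.249) and a median CV of 13.2% (6.19% to 23.3%), as the rule required. The other 984 genes of that level had medians of 1.75 and 30.2%. The plot of CV against ratio shows the members in its lower left corner.

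**Figure D1:**
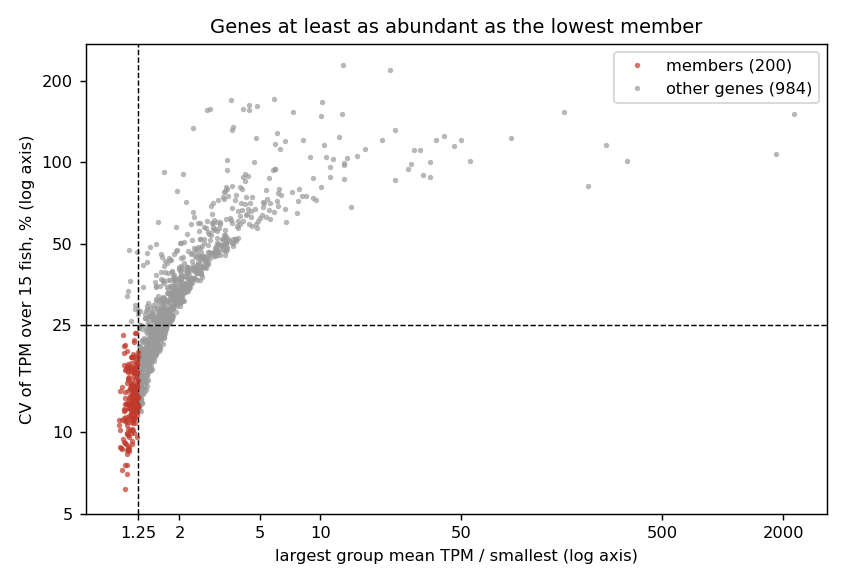
CV of TPM over the 15 fish (percent, log axis) against the largest group mean of TPM divided by the smallest (log axis) for the gene models at least as abundant as the lowest member; 1 further gene with a group mean of 0 is not drawn. The 200 members (red) fill the corner below both dashed limits (a largest mean 25% above the smallest, and a CV of 25%), and 351 of the other genes (grey) lie below the CV limit but right of the fold limit.

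The share of genes within both limits changed with abundance. It was 10% among the 100 most abundant gene models, 15% at ranks 101 to 500, 18.2% at ranks 501 to 1000, 21.4% at ranks 1001 to 2000 and 24.3% at ranks 2001 to 4000. It was 20.03% at ranks 4001 to 8000 and 8.06% at ranks 8001 to 16000. The CV limit alone was met by 31% of the first 100 genes and by 53.2% at ranks 2001 to 4000. The share over all tested genes was 12.5%.

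**Figure D2:**
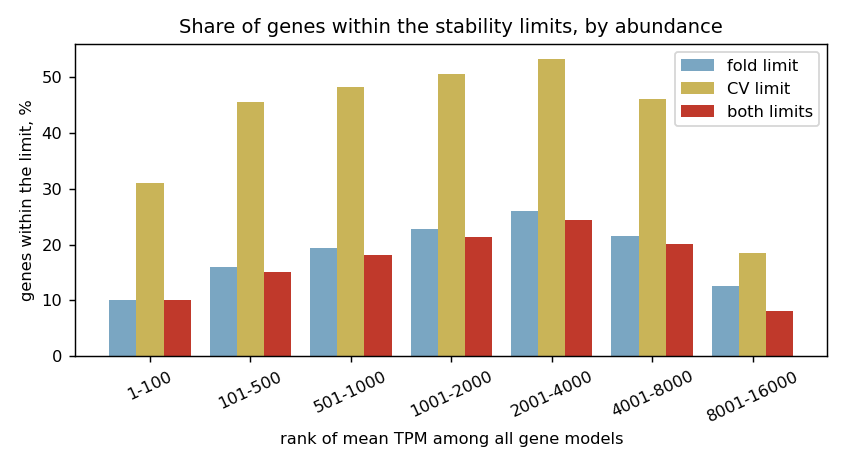
Percentage of gene models within the fold limit (blue), the CV limit (yellow) and both limits (red), by rank of mean TPM over the 15 fish. The share within both limits is 10% in the first 100 genes, 24.3% at ranks 2001 to 4000 and 8.06% at ranks 8001 to 16000.

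The members spanned a wide range of levels. Mean TPM ran between 121.4 and 14044, with a median of 205.3 and quartiles of 150.3 and 329.3. Of the 200, 2 lay above 10000 TPM and held 26.3% of the summed TPM of all members, 9 lay between 1000 and 10000, 19 between 500 and 1000, 75 between 200 and 500, and 95 below 200. The first 11 members held 49.7% of the summed TPM and the first 100 held 84.2%. Together the members took 9.40% to 10.6% of all TPM in hybrids, 9.59% to 10.1% in *rhy* and 8.69% to 10.8% in *com*, so this share overlapped between the groups.

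The most abundant member, maker-ptg002578l-snap-gene-0.3, is a model of 366 bases and the gene with the fifth largest mean TPM in the tissue. Its TPM was 15561, 13952, 15305, 16000 and 14400 in comrhy59 to comrhy63, 14441, 12483, 15949, 16670 and 13679 in rhy49 to rhy53, and 13718, 9311, 13900, 14976 and 10321 in com104, com121, com123, com124 and com125. The hybrid fish lay within the wider range of the *rhy* fish, and com121 and com125 lay below all others. Group means were 15043 ± 845 TPM in hybrids, 14644 ± 1692 TPM in *rhy* and 12445 ± 2473 TPM in *com* (SD, n = 5 each).

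The second member, maker-ptg002578l-snap-gene-0.2, is a model of 1149 bases on the same contig. Its TPM was 10726, 10935, 14045, 11537 and 11747 in the hybrids, 11699, 11742, 9465, 10232 and 11429 in *rhy*, and 16015, 10813, 13542, 11459 and 11296 in *com*. The groups overlapped, and com104 was the highest of all fish. The contig ptg002578l carries 6 gene models, and all of them were among the 15 most abundant of the tissue. Only these 2 met the limits. Their neighbour maker-ptg002578l-snap-gene-0.4 averaged 7355 TPM in hybrids, 6350 TPM in *rhy* and 19087 TPM in *com*, a ratio of 3.01, and the other 3 had ratios of 1.48 to 1.601. The expected counts of both members were whole in all 15 libraries, to within 0.005 of a count. Whether near-identical copies share reads on this contig was not tested. The aligner is not given in the sources, so nothing about shared reads is drawn from the whole counts.

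The third member, maker-ptg000102l-augustus-gene-52.30, is the shortest of all members at 246 bases, and its mean effective length (the number of positions at which a fragment can start) was 24.1 bases. Its TPM was 8572, 7448, 10492, 8662 and 7298 in the hybrids, 8409, 6444, 9767, 10436 and 7184 in *rhy*, and 9023, 8483, 7248, 9214 and 8192 in *com*. The group means were 8495, 8448 and 8432 TPM in that order, a ratio of 1.007. The highest fish was the hybrid comrhy61 and the lowest was rhy50. This TPM rested on 646 to 1795 counts per library, which the small effective length scales up.

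The fourth member, maker-ptg001507l-augustus-gene-1.241, is a model of 1617 bases. It had 3219, 3327, 3696, 3364 and 3000 TPM in the hybrids, 2711, 2668, 2628, 2914 and 2893 TPM in *rhy*, and 3842, 2685, 2669, 3022 and 2601 TPM in *com*. Every hybrid lay above every *rhy* fish, and the *com* fish spread over both ranges. The fifth, maker-ptg000974l-augustus-gene-4.34, of 381 bases, had 2801, 2117, 2980, 3353 and 2614 TPM in the hybrids, 3126, 3207, 3678, 3954 and 1868 TPM in *rhy*, and 2447, 2754, 2511, 2548 and 2519 TPM in *com*. Here the *com* fish were close together and *rhy* ran widest, with rhy53 below every other fish.

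The sixth to eighth members averaged between 1500.3 and 1792 TPM. maker-ptg002111l-snap-gene-0.57 had 1936 ± 273 TPM in hybrids, 1748 ± 161 TPM in *rhy* and 1693 ± 81.9 TPM in *com* (SD, n = 5 each). maker-ptg000008l-snap-gene-10.43 had 1584 ± 275 TPM in hybrids, 1651 ± 111 TPM in *rhy* and 1784 ± 374 TPM in *com*, with com123 and com124 above all other fish. maker-ptg000575l-augustus-gene-4.115 had 1585 ± 162 TPM in hybrids, 1449 ± 81.09 TPM in *rhy* and 1467 ± 92.8 TPM in *com*. In all 3 the groups overlapped.

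**Figure D3:**
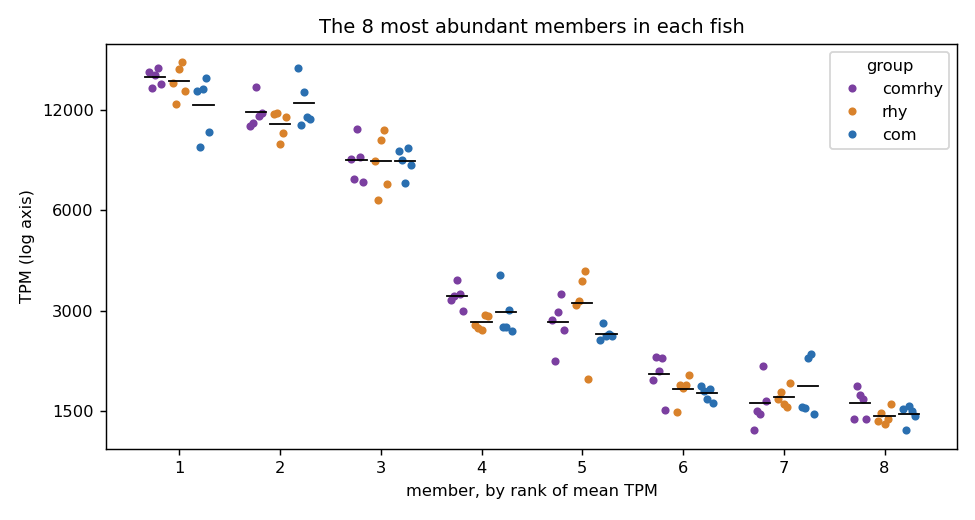
TPM (log axis) of the 8 most abundant members in each fish, ordered by mean TPM, with hybrids (purple), *rhy* (orange) and *com* (blue) side by side; each point is 1 fish and each black line a group mean. The group means of a member differ by at most 1.24-fold, while single fish such as rhy53 at member 5 and com104 at members 2 and 4 stand off from their group.

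The steadiest members were moderately abundant. maker-ptg001220l-snap-gene-7.56 had the smallest CV of the 200, 6.19%. Its TPM was 139.2, 152.9, 151.3, 164 and 142.2 in the hybrids, 145.1, 138.4, 135.4, 140.4 and 139.8 in *rhy*, and 132.9, 160.8, 150.6, 148.3 and 151.3 in *com*. All 15 fish lay between 132.9 and 164 TPM. It was followed by maker-ptg000687l-snap-gene-0.0 (CV 7.002%, 185.8 TPM), maker-ptg000135l-augustus-gene-59.6 (CV 7.29%, 297.7 TPM) and maker-ptg000405l-augustus-gene-11.17 (CV 7.56%, 138.8 TPM). In the last of these every group had an SD of at most 11.6 TPM.

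At the other end, snap_masked-ptg000260l-processed-gene-5.16 and maker-ptg001666l-augustus-gene-12.74 were the last inside the CV limit. The first is 264 bases long and rested on 13 to 51 counts per library. The second, the least abundant member, had 65.5, 159.1, 85.6, 128 and 124.8 TPM in the *com* fish, and its expected counts were not whole in any library. Over all members the lowest count in any library had a median of 1474, and 2 members fell below 100 counts somewhere. The 20498-base model maker-ptg000110l-snap-gene-11.31 was the longest and drew 42754 to 122588 counts per library.

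Within a group the members also varied less than other abundant genes, which follows from the CV limit. The median CV within a group was 11.1% in hybrids, 10.1% in *rhy* and 12% in *com*, against 13.5%, 13.6% and 19.1% for the other 984 genes of like level. *com* was the group with the widest spread for 108 of the 200 members, *rhy* for 47 and hybrids for 45. Among the other 984 genes *com* was widest for 530, *rhy* for 221 and hybrids for 233. *com* led in both sets, so its lead is not read as particular to the members. The highest group mean was that of hybrids for 69 members, of *rhy* for 75 and of *com* for 56, and the lowest was that of hybrids for 50, of *rhy* for 67 and of *com* for 83. For the other 984 genes the highest mean was that of hybrids for 235, of *rhy* for 454 and of *com* for 295. Their lowest mean was that of *com* for 496, of *rhy* for 367 and of hybrids for the rest. In both sets *rhy* was most often highest and *com* most often lowest. The hybrid mean lay between the parental means for 81 of the 200 members, and for 628 of the other 984 genes. The limit on the ratio fixes how far the parents can lie apart, so the share for the members and that for the others are not a like comparison.

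The rule did not use position or gene model source. Gene length entered it through TPM, which divides counts by effective length, so the lengths are not independent of the selection. The members had a median length of 1772.5 bases (246 to 20498) against 2186 bases over all tested genes and 1821.5 over the other abundant genes. Of the 200, 41 (20.5%) were shorter than 1000 bases, as were 25.9% of the other abundant genes and 14.0% of all tested genes. This difference was not tested. They were spread over 164 contigs, 139 of which held 1 member, 18 held 2 and 7 held 3 or more. The largest number, 6, lay on ptg000051l, which also carries 240 tested genes, and 4 lay on ptg000234l. By the identifiers, 52% of the models came from SNAP through MAKER, 36.5% from AUGUSTUS through MAKER, 11% from SNAP on masked sequence and 0.5% from aligned transcripts, against 55.5%, 31.5%, 10.3% and 2.64% of all tested genes.

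Some fish stood at the edge for many members at once. By TPM, com125 was the lowest of the 15 fish for 60 of the 200 members, comrhy59 for 28, and com104 was the highest for 42. No other fish was lowest for more than 20 or highest for more than 26. The median log2 deviation of the members from their mean over all fish, in TPM, was -0.13 in comrhy59 and -0.17 in com125, and in the other 13 fish it lay between -0.06 and 0.09. On the first principal component of the members' log2 TPM (24.9% of the variance) com104 (2.78) and com125 (-3.06) lay at the ends, with comrhy59 (-2.09) near com125. The second component (14.0%) had all *rhy* fish above 0 (0.10 to 2.04), all *com* fish below 0 (-1.52 to -0.58), and the hybrids between -0.70 and 0.36. The rule used these levels, and no component of other genes was set beside it, so this order of the groups is a description only.

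Pairs of members that followed each other across fish were led by the same fish. The deviations of log2 TPM from group means had a Pearson r of 0.949 between maker-ptg000650l-augustus-gene-6.57 and maker-ptg000195l-snap-gene-4.66, and of 0.947 between maker-ptg001207l-augustus-gene-1.67 and snap_masked-ptg000561l-processed-gene-12.37. These values describe 15 fish whose libraries and depths the genes share. In the second pair com104 reached 668 TPM (the other *com* fish 278.2 to 380 TPM) and 213 TPM (the others 90.4 to 120.1 TPM). The 4 genes lie on 4 contigs. Over all 19900 pairs the median r was 0.228, and 8 pairs exceeded 0.9.

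To see how the members stood in a fit across all genes, counts were compared between groups in edgeR, with TMM scaling (a factor per library that centres most genes on no change) and Benjamini-Hochberg adjustment over 18489 genes. Of the 200 members, 46 (23%) were lower in *rhy* than in *com* and 0 were higher at an adjusted p under 0.05, where 45.4% of all genes were called (22.5% higher, 23% lower). In hybrids against *rhy*, 2 were higher and 5 lower (3.5%), where 28.6% of all genes were called (14.7% higher, 13.9% lower). In hybrids against *com*, 0 were higher and 24 lower (12%), where 21.9% were called (11.1% higher, 10.7% lower). The rule used the same contrasts, so nothing is read from these shares. At an unadjusted p under 0.05, 58 members were lower and 1 was higher in *rhy* against *com*, and 53 were lower and 0 higher in hybrids against *com*. The share of all genes at that threshold is not given, so nothing is read from these counts either. DESeq2 called 0 members higher and 58 lower in *rhy* against *com*, where 47.2% of all genes were called (4158 higher, 4542 lower). In hybrids against *com* it called 0 higher and 40 lower, where 25.4% were called (2252 higher, 2438 lower). In hybrids against *rhy* it called 9 higher and 14 lower, where 32.8% were called (3168 higher, 2892 lower). The comparisons share libraries and are not independent of each other.

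The limit on the ratio of group means keeps the members' differences small. With a log2 fold change beyond 1 also required, 0 members were called in each contrast, where 22.8%, 12.1% and 9.08% of all genes were, and the rule itself leaves little room for such calls. The members' median log2 fold change was -0.14 in *rhy* against *com*, -0.0029 in hybrids against *rhy* and -0.14 in hybrids against *com*. Regardless of sign the medians were 0.15, 0.13 and 0.14, with a median standard error of a member of about 0.11.

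In *rhy* against *com* the 2 called members with the most negative fold changes were both short. The 246-base model maker-ptg000102l-augustus-gene-52.30, whose TPM hardly differed, had 45.9 to 119.4 CPM (counts scaled by TMM to a common library size) in *rhy* and 129 to 174 CPM in *com*, a log2 fold change of -0.80 ± 0.24 (SE). Its effective length averaged 19.3 bases in *rhy* and 31.8 bases in *com*. With an offset for effective length the log2 fold change was -0.11. The 395-base model snap_masked-ptg000173l-processed-gene-8.116 had 9.66 to 12.8 CPM in *rhy* and 13.7 to 17.9 CPM in *com*, a log2 fold change of -0.52 ± 0.14, and -0.27 with the offset.

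The offset moved the short members most. The fragment length of a library, as lengths less effective lengths give it, was 268 to 298 bases in hybrids and 271 to 299 bases in *rhy*. It was 255 to 265 bases in *com*, so *com* lay apart from both. Of 30 members with an effective length under 500 bases, 7 were called lower in *rhy* than in *com* (median log2 fold change -0.17), and 3 with the offset (median -0.06). Of 72 members of 2000 bases and over, 20 were called (median -0.16), and 19 with the offset (median -0.15). The share of all genes called in these length classes is not given, so the counts are not read as particular to the members. In hybrids against *com* the short members had a median of -0.25 without and -0.10 with the offset. The plot of fold change against effective length shows both fits.

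**Figure D4:**
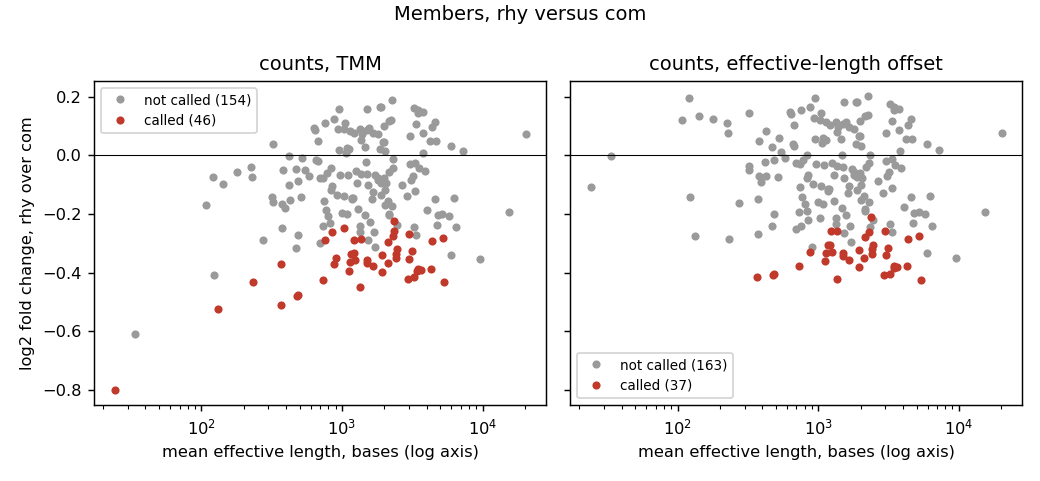
Log2 fold change of the 200 members, *rhy* over *com*, against mean effective length in bases (log axis), from TMM-scaled counts (left) and with an offset for effective length (right); red points were called at an adjusted p under 0.05. On the left 46 members are called and the shortest lie lowest, at -0.80 and -0.61, while on the right 37 are called and the same 2 lie at -0.11 and -0.0023.

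The 7 members called in hybrids against *rhy* had log2 fold changes between -0.34 and 0.28. maker-ptg000021l-snap-gene-19.56 had 381, 366.3, 372.5, 401.5 and 376.8 TPM in the hybrids against 327.9, 307.4, 311.4, 306.1 and 291 TPM in *rhy*, and the groups did not overlap. Its log2 fold change was 0.28 ± 0.09 (SE). The *com* fish (338.5 to 381.5 TPM) all lay above the *rhy* fish. Of these, com121 and com125 lay within the range of the hybrids, and com104, com123 and com124 lay below it. The other member higher in hybrids was maker-ptg002239l-snap-gene-7.60, with 196.2 to 268.6 TPM in hybrids and 173.5 to 204.1 TPM in *rhy* (log2 fold change 0.22 ± 0.08). The lowest was maker-ptg000187l-augustus-gene-4.18, with 97.2, 122.4, 124.1, 116.5 and 114.4 TPM in the hybrids against 141.2, 158.6, 133.2, 140.3 and 140.6 TPM in *rhy* (log2 fold change -0.34 ± 0.09), again without overlap. It was followed by maker-ptg001338l-augustus-gene-0.43, at -0.32 ± 0.11.

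In hybrids against *com* the lowest called members were maker-ptg000760l-augustus-gene-3.7 and maker-ptg000311l-snap-gene-19.18. The first had 242.6, 242.3, 249.2, 237.2 and 244.9 TPM in the hybrids against 305.4, 299.6, 338.5, 319.9 and 241.8 TPM in *com*, where only com125 reached the level of the hybrids. Its log2 fold change was -0.48 ± 0.10 (SE). The second had 219.1 to 249.95 TPM in hybrids against 258.3 to 305.8 TPM in *com*, without overlap, at -0.47 ± 0.10. In *rhy* its TPM ran from 191.6 in rhy51 to 272.6 in rhy50. The member nearest to the fold limit, maker-ptg001452l-augustus-gene-1.22, had 150.7 to 192.7 TPM in hybrids and 163.5 to 190.8 TPM in *rhy*, and every *com* fish lay above these at 194.3 to 240.1 TPM. Its log2 fold change was -0.47 ± 0.10 in hybrids against *com* and -0.42 ± 0.10 in *rhy* against *com*.

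The direction of the members' differences from *com* changed with some scalings and not with others. DESeq2's size factors in edgeR kept the direction under TMM. They gave 0 members higher and 50 lower in *rhy* against *com* (45.4% of all genes called). In hybrids against *com* they gave 0 higher and 29 lower (21.9%). The offset for effective length gave 0 higher and 37 lower (45.6%), and 0 higher and 17 lower (21.9%), in the same order. The mean over fish of the members' median log2 deviation was 0.01 in hybrids, 0.0023 in *rhy* and -0.03 in *com* in TPM, and -0.05, -0.05 and 0.08 in TMM-scaled CPM. With CPM by library totals it was 0.03, -0.01 and -0.03. In *rhy* against *com*, library totals gave 11 members called higher and 10 lower, with factors from the members' own counts 12 higher and 14 lower, and with limma on log2(TPM + 0.5) 13 higher and 11 lower. In hybrids against *com* these fits called 2 higher and 3 lower, 3 higher and 6 lower, and 1 higher and 3 lower. The same choice moved all genes: in *rhy* against *com* 49.5% of the called genes were higher in *rhy* under TMM, 61.1% under library totals, 60.2% under the members' factors and 61.8% in TPM, and in hybrids against *com* 50.9% were higher in hybrids under TMM, 76.2%, 71.4% and 72.9% under the others. The median log2 fold change of all genes was -0.02 and 0.03 in these contrasts under TMM, 0.13 and 0.22 under library totals, 0.12 and 0.17 under the members' factors, and 0.12 and 0.18 in TPM. The members' own median was -0.14 in both contrasts under TMM, 0.01 and 0.05 under library totals, and 0.04 and 0.04 in TPM. In each of these fits the members' median lay below that of all genes. A change of library factors moves the members and all other genes by nearly the same amount. The order of the 2 medians therefore could hardly change between these scalings, and its return is not read as a repeat. The rule holds the members near equal TPM. Factors from the members' own counts centre the members on no change by construction, so no direction can be read from that fit. These medians and calls are a description. What they owe to the scaling and what to the choice of members was not tested.

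**Figure D5:**
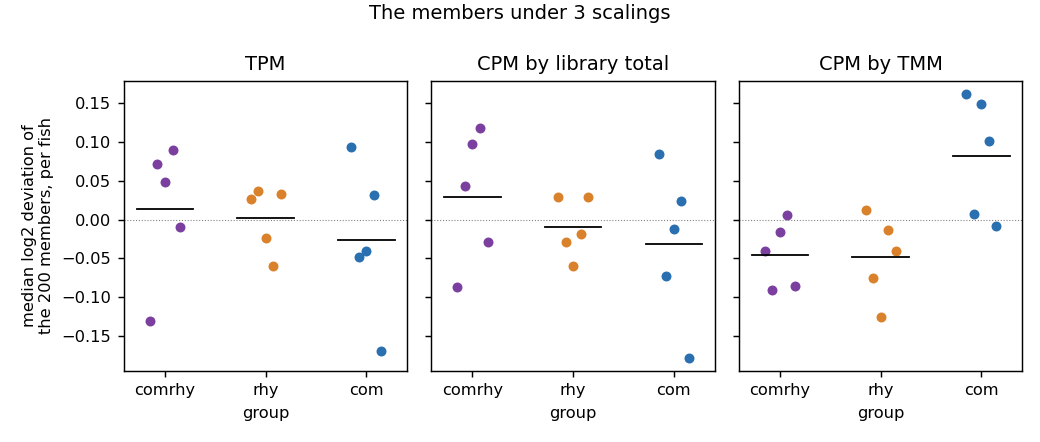
Median log2 deviation of the 200 members from their mean over all fish, per fish, under TPM (left), CPM by library total (middle) and CPM by TMM (right), for hybrids, *rhy* and *com*; points are fish and lines are group means. The *com* mean is lowest in the left and middle panels (-0.03 in each) and highest in the right panel (0.08).

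snap_masked-ptg000024l-processed-gene-13.7, the most abundant gene of the tissue and no member, took 4.38% to 5.89% of all counts in hybrids, 2.64% to 5.18% in *rhy* and 3.63% to 19.3% in *com*, where the fish from com104 to com125 had 3.63%, 19.3%, 15.4%, 9.70% and 10.9%. The members' median deviation under TMM in the same fish was 0.16, 0.01, 0.15, 0.10 and -0.01, and com104, with the smallest share of the 5, had the largest deviation. When TPM was rescaled without that gene, 155 of the 200 members were selected again by the same rule. With TMM-scaled counts per kilobase of effective length, 161 members met the fold limit and all 200 the CV limit, *com* had the highest mean for 112 of them (56 in TPM), and 146 were selected again. Which scaling reflects the RNA content of the cells was not tested.

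Counts of calls also moved with single fish. The share of all genes called in the same fit is given in brackets. Without rhy51, 30 members were called in *rhy* against *com* (43%), and without com104, 5 were higher and 41 lower (46.3%). All 15 fish gave 45.4%. In hybrids against *rhy*, 12 were called without rhy49 (26.1%) and 3 without comrhy62 (24%). Only 2 each were called without rhy50 (25.3%), rhy52 (23.2%) and comrhy59 (25.7%), where all fish gave 28.6%. In hybrids against *com*, 11 were called without com123 (17.1%), 15 without com124 (17.7%) and 13 without comrhy60 (17.9%). All fish gave 21.9% there, so the shares of all genes moved as well. The selection was steadier, as 179 (without com125) to 191 (without rhy49) of the 200 members were selected again when 1 fish was left out.

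A readout that the rule did not use is the share of members with a non-whole expected count, which arises where RSEM divides reads that fit more than 1 gene model. It was counted as more than 0.005 from a whole number. Of the 200 members, 9, 11, 10, 9 and 10 had such a count in the hybrids, 9, 7, 8, 9 and 8 in *rhy*, and 7, 8, 8, 10 and 8 in *com*. The means were 4.9% ± 0.42 in hybrids, 4.1% ± 0.42 in *rhy* and 4.1% ± 0.55 in *com* (SD, n = 5 each). Hybrids exceeded *rhy* by 0.8 percentage points (two-sided exact permutation test, p = 0.0476, adjusted p = 0.0952 over 3 pairs) and *com* by 0.8 points (exact p = 0.0635, adjusted p = 0.0952), which did not pass after adjustment. With a tolerance of 0.05 of a count both differences were 1 percentage point and passed (exact permutation test, adjusted p = 0.0357 against *rhy* and 0.0238 against *com*), and without com124 the difference from *com* was 1.025 points (adjusted p = 0.0238). *rhy* and *com* had equal means (exact p = 1). Over the 15 fish, 16 members (8%) had a non-whole count in at least 1 library, against 10.8% of all tested genes. Over all tested genes, at the tolerance of 0.005, the share per fish was 6.28% to 6.86% in hybrids, 5.16% to 6.34% in *rhy* and 5.59% to 6.03% in *com*. Its mean was 6.62% in hybrids, 5.90% in *rhy* and 5.87% in *com*. Hybrids led over all tested genes as well, so the difference is not read as particular to the members. Library totals were also largest in hybrids, and a part of depth in the difference was not tested.

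Among genes with a name, those in the gene tables of the study were described by the same limits, although they are no members. These tables were drawn up by the study from its own samples and are not independent of them. Of 39 genes listed for a change in allele share between juvenile and adult hybrids, 7 (17.9%) met both limits, and of 107 tested candidates for EOD development, 2 (1.87%) did, against 12.5% of all tested genes. The lists differ in abundance, with a median mean TPM of 62.2 in the first and 6.60 in the second. Of all genes at ranks 2001 to 4000 (35.2 to 75.3 TPM) 24.3% met both limits. At ranks 8001 to 16000 (1.74 to 13.2 TPM) the share was 8.06%. The 9 genes were chosen for naming after their values were seen, and all were less abundant than the lowest member. The most abundant was *DNM2*, which encodes dynamin 2, a GTPase that pinches off membrane vesicles, with 88.3 ± 9.93 TPM in hybrids, 81.9 ± 6.54 TPM in *rhy* and 88.2 ± 13.7 TPM in *com* (SD, n = 5 each). *LPL*, lipoprotein lipase, had 70.8 ± 13.0 TPM in hybrids, 80.7 ± 17.0 TPM in *rhy* and 72.7 ± 14.1 TPM in *com*.

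The other 7 include regulators and transport factors. *HIF1AN*, an oxygen-dependent hydroxylase that acts on HIF1A, averaged 66.1 TPM in hybrids, 66.2 TPM in *rhy* and 56.3 TPM in *com*. *RANBP2*, a nuclear pore protein, averaged 67.8, 57.0 and 61.8 TPM in the same order, and *SRP68*, a subunit of the signal recognition particle, 48.7, 53.04 and 45.8 TPM. *SRP68* was the steadiest of the 9, with a CV of 10.6%. *TULP4* averaged 46.4 TPM in hybrids, 47.3 TPM in *rhy* and 50.8 TPM in *com*, where 1 fish reached 81.9 TPM. *RANBP9*, a scaffold protein, averaged 35.2, 43.1 and 36.8 TPM, *SPAG9*, a scaffold of the JNK pathway, 23.7, 25.4 and 24.9 TPM, and *USP44*, a deubiquitinase, 3.6, 3.11 and 3.24 TPM. In each of the 9 genes every pair of groups overlapped.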

How the data were processed

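Poly(A) RNA of 15 electric organs was sequenced in strand-specific libraries, 1 per fish. The authors trimmed reads with Trimmomatic (version 0.39) and quantified them with RSEM on the *C. compressirostris* genome; the aligner and the assembly version are not given in the sources used here. The deposited expected counts of RSEM are not normalized. The deposited TPM and effective lengths, also made by the authors with RSEM, gave the selection. The deposited FPKM values were not used.

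Members were selected on TPM by the rule in the text, with the SD over n - 1 fish. The members, lists and tests were chosen with earlier results of these data known. Named are the 8 members with the largest TPM, the 4 with the smallest CV, those next to a limit, the longest and shortest, the 2 closest pairs, and at most 2 called members per direction and contrast. Of 158 identifiers in the supplementary tables, 5 could not be matched.

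Expected counts were rounded, filtered (count above 10 in at least 2 libraries) and fitted by the quasi-likelihood test of edgeR 4.0.16 (under R 4.3.3) with TMM, 1 coefficient per group and all 15 libraries. P-values set the difference between groups against the spread between fish. Permutation tests enumerated 252 assignments, with a smallest two-sided p of 0.00794. Chi-square per degree of freedom between libraries of a group was 20.4 to 141, so none was a copy of another. The steps were tested on simulated data. Alternatives used DESeq2 (version 1.42.0), limma (version 3.58.1), other scalings, filters and limits, and each fish left out. Summaries and plots were made in Python 3.11.15 with pandas 2.3.3, numpy 2.4.6, matplotlib 3.10.9 and scipy 1.17.1.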

Additional observations from a re-analysis of the deposited data

Results flagged for a closer look

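Values of 1 fish that stood apart from the other 4 of its group by Dixon's criterion were looked for in 108 sets (36 measures in 3 groups). Of these, 8 were found, where chance gives about 1 in 20 for sets not chosen by their values. Some of the measures are members named for their spread or close pairing in these data, and others count the same members. That rate therefore does not apply to them as a set, and nothing is read from the 8. In rhy53, maker-ptg001666l-augustus-gene-12.74 had 145.8 TPM, and the other *rhy* fish 102.9 to 114.5 TPM. In com104, maker-ptg001207l-augustus-gene-1.67 had 668 TPM (others 278.2 to 380 TPM) and snap_masked-ptg000561l-processed-gene-12.37 had 213 TPM (others 90.4 to 120.1 TPM). In comrhy60, snap_masked-ptg000173l-processed-gene-8.116 had 154.3 TPM, and the other hybrids 184.2 to 193.6 TPM. The members took 6.65% of all counts in rhy51, and 6.92% to 7.02% in the other *rhy* fish. By TPM, com104 was the highest of all fish for 42 members, and the other *com* fish for 3 to 13. By TPM also, comrhy59 was the lowest of all fish for 28 members (other hybrids 1 to 7), and com125 for 60 (other *com* fish 4 to 20). Over the TPM of all 200 members, 38 of 600 sets (6.333%) had a fish apart, 12 of them com104 and 7 comrhy59.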

How the results depend on the processing

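The selection kept 83 of the 200 members when the largest group mean was allowed to be 15% above the smallest, and 88 at 50%, where more abundant genes enter and fill the 200 places. It kept 193 and 195 at CV limits of 0.20 and 0.30, 174 with group medians, 146 with TMM-scaled counts per kilobase, 155 without the most abundant gene, and 179 to 191 with 1 fish left out. Calls among the members are given in the order *rhy* against *com*, hybrids against *rhy*, hybrids against *com*, and were 46, 7 and 24. They were 21, 9 and 5 with library totals, 26, 14 and 9 with the members' factors, 24, 6 and 4 in TPM with limma, 32, 3 and 11 with no filter, 48, 12 and 27 with filterByExpr, 45, 17 and 20 with only the groups compared, 58, 23 and 40 in DESeq2, 50, 9 and 29 with its size factors in edgeR, 37, 9 and 17 with the offset for effective length, and 0, 0 and 0 with a log2 fold change beyond 1. With 1 fish left out they ranged 30 to 47, 2 to 12 and 11 to 30. Of all genes, in the same order, 45.4%, 28.6% and 21.9% were called in the main fit. Library totals gave 46.5%, 27.2% and 27.4%, and the members' factors 46.9%, 28% and 25.6%. TPM with limma gave 46.4%, 26.6% and 25.4%, and no filter 30.1%, 17.2% and 13%. filterByExpr gave 47.9%, 30.8% and 23.5%, and DESeq2 47.2%, 32.8% and 25.4%. DESeq2's size factors in edgeR gave 45.4%, 28.5% and 21.9%, and the offset 45.6%, 28.7% and 21.9%. Only the groups compared gave 44.5%, 31.6% and 19.7%, and a log2 fold change beyond 1 gave 22.8%, 12.1% and 9.08%. With 1 fish left out the shares of all genes ran 41.4% to 46.3%, 23.2% to 26.5% and 17.1% to 23.4%. The causes of these moves were not tested, beyond the fold limit itself. Of the 46, 46 remained called in DESeq2, 37 with the offset and 10 with library totals. With a tolerance of 0.05, the share of members with a non-whole count was 1 percentage point higher in hybrids than in *rhy* (exact permutation test, adjusted p = 0.0357) and than in *com* (adjusted p = 0.0238), so both passed. With 1 fish left out the differences ranged 0.65 to 0.9 against *rhy*, 0.65 to 1.025 against *com* (1.025 without com124, adjusted p = 0.0238) and -0.15 to 0.225 between *rhy* and *com*. The range over fish of the members' median deviation was 0.29 under TMM, 0.33 under DESeq2's size factors and 0.30 under library totals. No paired analysis was possible because the fish numbers are different in each group. Counts limit the shortest members, down to 13 counts in 1 library.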
